A study of Mus musculus with 6 samples.

Results

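Phase II conjugating enzymes attach a polar group to drugs, dietary compounds, bilirubin, steroids and products of lipid peroxidation, which makes these molecules easier to export from the cell. UDP-glucuronosyltransferases (UGTs) transfer glucuronic acid from UDP-glucuronic acid, glutathione S-transferases (GSTs) transfer glutathione, and sulfotransferases (SULTs) transfer a sulfonate group from PAPS. The absorptive cells of the intestine are a major site of this chemistry, since they meet swallowed compounds before the liver does, and many of these genes are known targets of the xenobiotic sensors Nrf2, Ahr, Pxr and Car. The genes described here are the protein-coding genes whose GENCODE M21 symbol belongs to the Ugt1a, Ugt2a, Ugt2b, Gsta, Gstk, Gstm, Gsto, Gstp, Gstt, Mgst or Sult families. The rule used names only, no measured value, and found 64 of the 47643 genes in the table: 19 UGTs, 21 soluble GSTs, 3 microsomal GSTs and 21 SULTs.

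RNA was sequenced from the intestine of male C57BL/6 mice injected with tamoxifen at 7 to 8 weeks of age and fed a diet labelled 60% HFD (high-fat diet) for 2 weeks. The 3 control libraries came from Mycfl/fl mice, whose Myc gene carries recombination sites, and the 3 Myc-deleted libraries from MycΔIE, ERT2 mice, labelled as the inducible deletion; both groups received tamoxifen and the diet. The labels name neither the promoter that drives the recombinase nor whether the controls carry it, so loss of Myc and presence of the recombinase cannot be told apart. They do not name the gut segment or say that each library is a separate animal, so the p-values measure the spread between these libraries, which may be technical.

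Each library held 9956938 to 11328693 counts, so that 3 counts correspond to 0.259 to 0.306 CPM, the count scaled to a common library total. Myc transcript was 5.98 ± 0.102 CPM in controls and 4.49 ± 1.26 CPM in Myc-deleted libraries (SD, n = 3 each), with Myc-deleted library 3, at 5.81 CPM, just under the control range of 5.86 to 6.05; the difference did not pass (adjusted p = 0.318), and the transcript level therefore checks the labels only weakly. Although the extraction text names liver, 16 enterocyte markers summed to 46808 to 55968 CPM in controls and 58840 to 64398 CPM in Myc-deleted libraries, and 9 hepatocyte markers to 5.86 to 6.74 and 3.34 to 5.03 CPM. Among the marker lists for other cells, the summed colon markers were 676 to 1105 CPM in controls and 373 to 490 CPM in Myc-deleted libraries, with 4 of 8 tested genes lower, none higher, and Aqp8 and Hoxb13 at 0. Of the enteroendocrine markers 3 of 10 tested and of the stem cell markers 2 of 7 were higher, and no goblet, Paneth, tuft, stromal or immune marker passed. Over all tested genes, 4.22% were higher and 3.73% lower. Stem markers were mixed, with Sox9 and Cd44 higher. Olfm4 (6.02 and 3.13 CPM in the control and Myc-deleted means) and Smoc2 (6.38 and 3.41) lay lower without overlap or passing. The summed stem markers overlapped, at 140 to 199 CPM in controls and 173 to 216 in Myc-deleted libraries. In bulk tissue, fewer cells of a type and less RNA per cell cannot be told apart.

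Across the 64 genes, soluble GSTs were the only enzyme class with genes that passed the test as higher in the Myc-deleted libraries, and UGTs, microsomal GSTs and SULTs held all of the genes that passed as lower. Gsta1, Gsta3, Gsta4, Gstm1, Gstm3, Gstm6 and Gstt1 were higher, by 1.96-fold to 4.89-fold. Ugt2b5, Ugt2b36, Ugt1a1, Sult1d1 and Mgst1 were lower, by 1.34-fold to 4.50-fold. In all, 34 of the 64 genes had enough counts to be tested, 7 were higher, 5 were lower and 22 did not pass (edgeR quasi-likelihood test, Benjamini-Hochberg adjustment over all 12720 tested genes, threshold 0.05). Ugt1a6a, 2.35-fold higher, missed the threshold (adjusted p = 0.0861) and passed under some other settings. Only 8 UGTs, 3 microsomal GSTs and 5 SULTs were tested. With 4.22% of all tested genes higher, having no higher gene there says little. The same holds for no lower gene among 18 tested soluble GSTs, against 3.73% lower.

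The share called among the tested conjugating genes was 35.3%, against 7.95% of all tested genes. Separately by direction, 20.6% were higher and 14.7% lower, against 4.22% and 3.73% of all tested genes. The median log2 fold change, always Myc-deleted over control here, was 0.07 over the 34 genes and -0.0021 over all tested genes, both near 0. By class it was 0.38 for the 18 tested soluble GSTs, -0.36 for the 8 tested UGTs, -0.11 for the 3 microsomal GSTs and -0.01 for the 5 tested SULTs. The groups did not overlap for 19 of the 34 genes, 12 of them with the Myc-deleted libraries above the controls and 7 below, against 27.8% of all tested genes. At the filter level for low counts, 0.929 CPM, 32 of the 34 tested genes were above it in all 6 libraries, and the other two, Gsta3 and Ugt2b36, were each below it in 1 library, a control for Gsta3 and a Myc-deleted library for Ugt2b36.

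**Figure D1:**
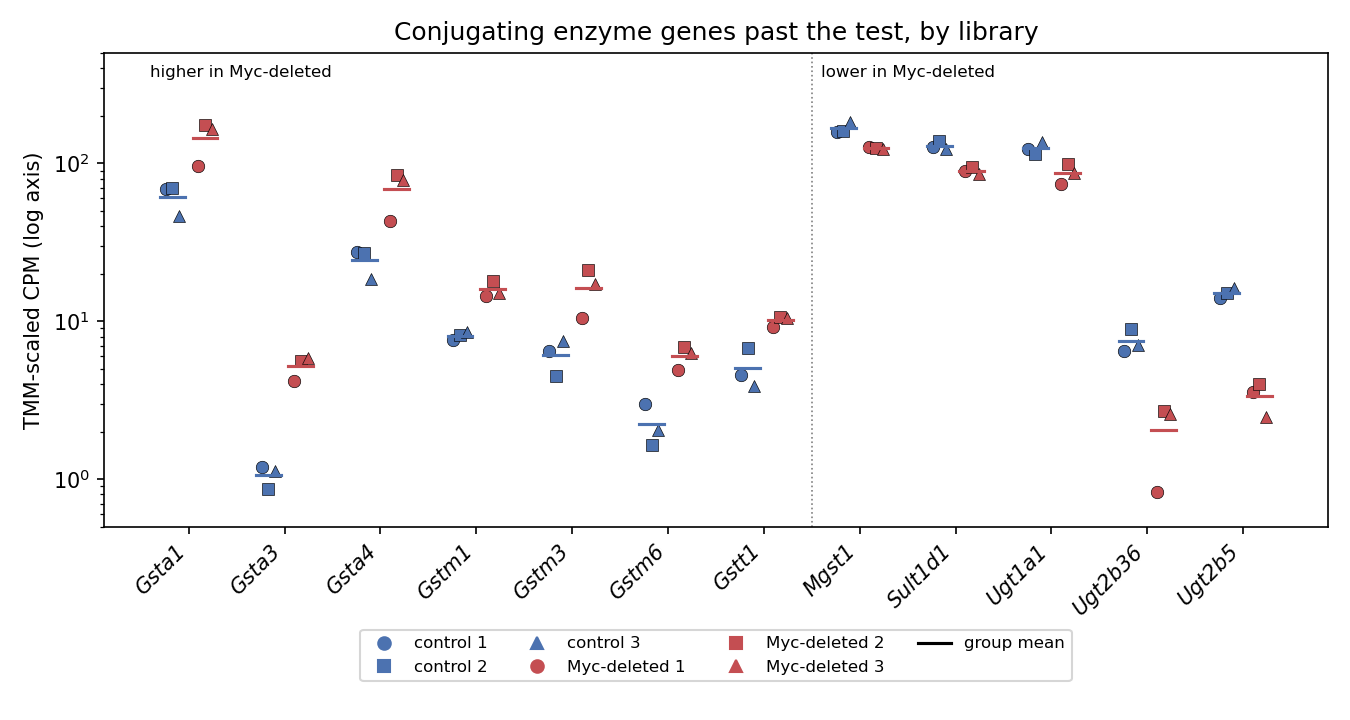
TMM-scaled CPM (log axis) of the 12 conjugating enzyme genes past the test, with 1 point per library and bars at the group means. The 7 genes at the left lie higher in the Myc-deleted libraries and the 5 at the right lower, and in each gene the groups do not overlap.

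The alpha class of soluble GSTs, enzymes that act on lipid peroxides and on reactive aldehydes such as 4-hydroxynonenal, had 3 tested genes of 4, and all 3 were higher in the Myc-deleted libraries. Gsta4, Gsta1 and Gsta2 lie within 173 kb of chromosome 9, and Gsta3 lies on chromosome 1. Gsta1 and Gsta2 are near copies, so their start regions are shown first, with that of Gsta3, the gene with the largest rise. The windows run from 160 bases before to 20 bases after the transcript start, are taken from RefSeq on GRCm38.p6, and are written 5′ to 3′ on the strand of the gene: Gsta1 at chr9:78230509-78230688, plus strand, Gsta2 at chr9:78347126-78347305, minus strand, and Gsta3 at chr1:21240425-21240604, plus strand. Capitals mark matches to GCGTG or CACGC (the xenobiotic response core), TGACATTGC (an antioxidant response core) and ATTAAC (the Hnf1 core read on the other strand).
Gsta1: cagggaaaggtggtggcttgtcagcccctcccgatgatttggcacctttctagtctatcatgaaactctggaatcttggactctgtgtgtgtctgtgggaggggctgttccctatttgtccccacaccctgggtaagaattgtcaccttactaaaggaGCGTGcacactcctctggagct
Gsta2: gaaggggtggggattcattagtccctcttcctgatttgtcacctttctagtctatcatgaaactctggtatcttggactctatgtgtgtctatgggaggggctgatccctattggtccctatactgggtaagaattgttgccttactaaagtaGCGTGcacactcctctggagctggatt
Gsta3: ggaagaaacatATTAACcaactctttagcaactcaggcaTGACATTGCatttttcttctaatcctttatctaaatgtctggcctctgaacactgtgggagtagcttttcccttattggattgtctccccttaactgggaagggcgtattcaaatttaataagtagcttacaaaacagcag
The Gsta1 and Gsta2 windows are identical at 81.6% of aligned positions. The GCGTG of Gsta1 lies 2 bases before the RefSeq start. For Gsta2 the RefSeq start differs from the GENCODE gene start by 8643 bases. Gsta3 holds its antioxidant core 121 bases before the start and its Hnf1 core 149 bases before it. A match is a description of the letters, and no binding was measured.

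Gsta1 (chromosome 9, 78230656 to 78242684, GRCm38, plus strand; positions of the genes are from GENCODE M21) is the main detoxifying alpha transferase. It was at 68.4, 70.3 and 46.3 CPM in controls 1, 2 and 3 and at 95.6, 175 and 165 CPM in Myc-deleted libraries 1, 2 and 3. Each Myc-deleted library was above each control, with library 1 nearest to them. The rise was 2.35-fold, a log2 fold change of 1.23 ± 0.22 (SE) with an adjusted p of 0.00915. Of the 50-base words in Gsta1's transcripts, 90.5% also occur in another gene, so its count depends on how RSEM divided ambiguous reads. Gsta2 had 1 to 6 counts and was not tested, while the near copy Gm10639 rose from 11.8 ± 3.13 to 24.4 ± 8.34 CPM (SD, n = 3 each, adjusted p = 0.0390). Gm3776, which holds 75.7% of the words, was not analysed here. Adding Gsta1, Gsta2 and Gm10639 together gave 81.7, 84.3 and 54.5 CPM in controls against 111, 208 and 191 CPM, with a log2 fold change of 1.21 ± 0.23 and an adjusted p of 0.0109.

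Gsta4, which prefers 4-hydroxynonenal as a substrate, shares no word with another gene. It was at 27.4, 27.1 and 18.4 CPM in controls and 43.1, 84.1 and 78.7 CPM in Myc-deleted libraries, and no control reached a Myc-deleted library. The rise was 2.82-fold (log2 fold change 1.495 ± 0.24, adjusted p = 0.00528). Gsta3 was scarce, at 12, 10 and 11 counts in controls and 46, 60 and 63 in Myc-deleted libraries. In CPM these were 1.19, 0.864 and 1.12 against 4.21, 5.57 and 5.81, a rise of 4.89-fold (log2 fold change 2.29 ± 0.27, adjusted p = 0.00149). Gsta3 had the highest fold of the conjugating genes at 1 of the lowest levels. Within the alpha class, control 3 was lowest of the controls in Gsta1 and Gsta4, and Myc-deleted library 1 was lowest of its group in all 3.

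The mu class, encoded by 7 genes within 149.1 kb of chromosome 3 and active on epoxides and quinones, was split. Of the 7, all tested, Gstm1, Gstm3 and Gstm6 were higher and the others did not pass, with a median log2 fold change of 0.54 over the class. Gstm1, the main mu enzyme of mouse liver, was at 7.65, 8.13 and 8.58 CPM in controls against 14.5, 18.0 and 15.1 CPM, and the controls varied little. Its rise was 1.96-fold (log2 fold change 0.97 ± 0.13, adjusted p = 0.00245). Gstm3 was at 6.46, 4.49 and 7.46 CPM against 10.5, 21.0 and 17.2 CPM, a 2.66-fold rise (1.41 ± 0.26 on the log2 scale, adjusted p = 0.0105), a call not kept without control 2 (adjusted p = 0.0569). Gstm6 was the scarcest of the trio, at 2.98, 1.64 and 2.04 CPM against 4.94, 6.87 and 6.27 CPM, a 2.72-fold rise (1.44 ± 0.26, adjusted p = 0.00936). Part of the words of these genes occur elsewhere, 18.9% for Gstm1, 28.8% for Gstm3 and 5.97% for Gstm6, so reads could be divided among mu genes.

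**Figure D2:**
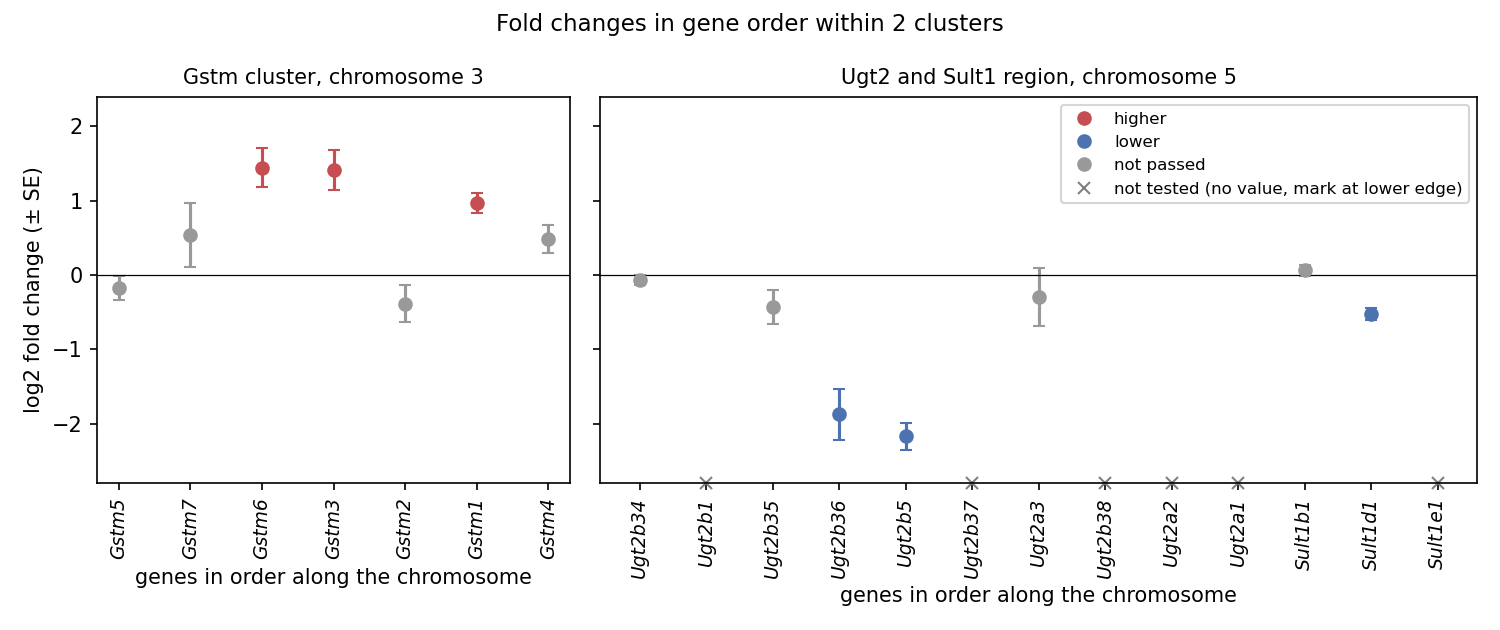
Log2 fold change of Myc-deleted over control with its SE (vertical axis) for the genes of the Gstm cluster and of the Ugt2 and Sult1 region, placed in chromosome order along the horizontal axis. Points are coloured by call and crosses mark genes with too few counts, showing higher and unpassed genes interleaved in the Gstm cluster.

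In chromosome order the cluster runs Gstm5, Gstm7, Gstm6, Gstm3, Gstm2, Gstm1 and Gstm4, so the higher genes are not all neighbours: Gstm2 lies between Gstm3 and Gstm1. Gstm2 was at 4.92 ± 1.44 CPM in controls and 3.75 ± 0.482 in Myc-deleted libraries (SD, n = 3 each; log2 fold change -0.39 ± 0.25, adjusted p = 0.404). Gstm4 did not overlap between groups without passing, at 3.68, 3.46 and 3.68 CPM against 4.57, 5.20 and 5.35 CPM (0.48 ± 0.19, adjusted p = 0.166). Gstm7 was higher in Myc-deleted library 2 alone, at 3.44 CPM against 1.28 and 1.38 CPM in the other two (0.54 ± 0.43, adjusted p = 0.521), and without that library its fold change was -0.07. Gstm5, at 7.26 ± 0.430 and 6.42 ± 0.669 CPM, gave -0.18 ± 0.16.

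Among the theta, pi, omega and kappa classes, Gstt1 alone passed the test. Gstt1, a theta enzyme that activates or detoxifies small halogenated compounds, was at 4.57, 6.74 and 3.88 CPM in controls and 9.24, 10.6 and 10.5 CPM in Myc-deleted libraries. The groups were apart and the rise was 1.98-fold (log2 fold change 0.98 ± 0.21, adjusted p = 0.0181). This call was not kept when control 1, control 3, Myc-deleted 2 or Myc-deleted 3 was left out in turn (adjusted p of 0.0502 to 0.0664). Gstt2, of the same cluster, was apart between groups without passing, at 22.6, 21.4 and 22.3 CPM against 25.9, 25.7 and 25.4 CPM (0.22 ± 0.09, adjusted p = 0.167). Gstt3, the highest theta gene per length, gave 0.10 ± 0.09, and Gstt4 had at most 2 counts in a library.

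The pi and omega classes include the most abundant soluble GSTs of this tissue. Per kilobase of exon, Gstp1 reached 192 CPM per kb and Gsto1 170 CPM per kb in controls, against 64.5 CPM per kb for Gsta1. Gstp1, a pi enzyme that conjugates acrolein, was at 304, 291 and 298 CPM in controls and 340, 356 and 381 CPM in Myc-deleted libraries. The groups were apart, but the log2 fold change of 0.27 ± 0.07 missed the threshold at an adjusted p of 0.0537. Its near copy Gstp2 was at 59.1, 59.1 and 52.8 CPM against 61.7, 60.6 and 64.4 CPM (0.13 ± 0.08, adjusted p = 0.401), and the copies summed gave 0.25 ± 0.07 (adjusted p = 0.0720). Gstp3 was the sole soluble GST apart in the other direction, at 4.57, 4.06 and 4.801 CPM against 3.39, 3.34 and 3.14 CPM (-0.44 ± 0.20, adjusted p = 0.231). Gsto1, a thioltransferase and dehydroascorbate reductase, was at 345, 350 and 338 CPM against 374, 407 and 393 CPM (0.19 ± 0.07, adjusted p = 0.156). Gsto2 had 0 to 7 counts, and Gstk1, the kappa enzyme of mitochondria and peroxisomes, gave -0.13 ± 0.11 (adjusted p = 0.543).

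**Figure D3:**
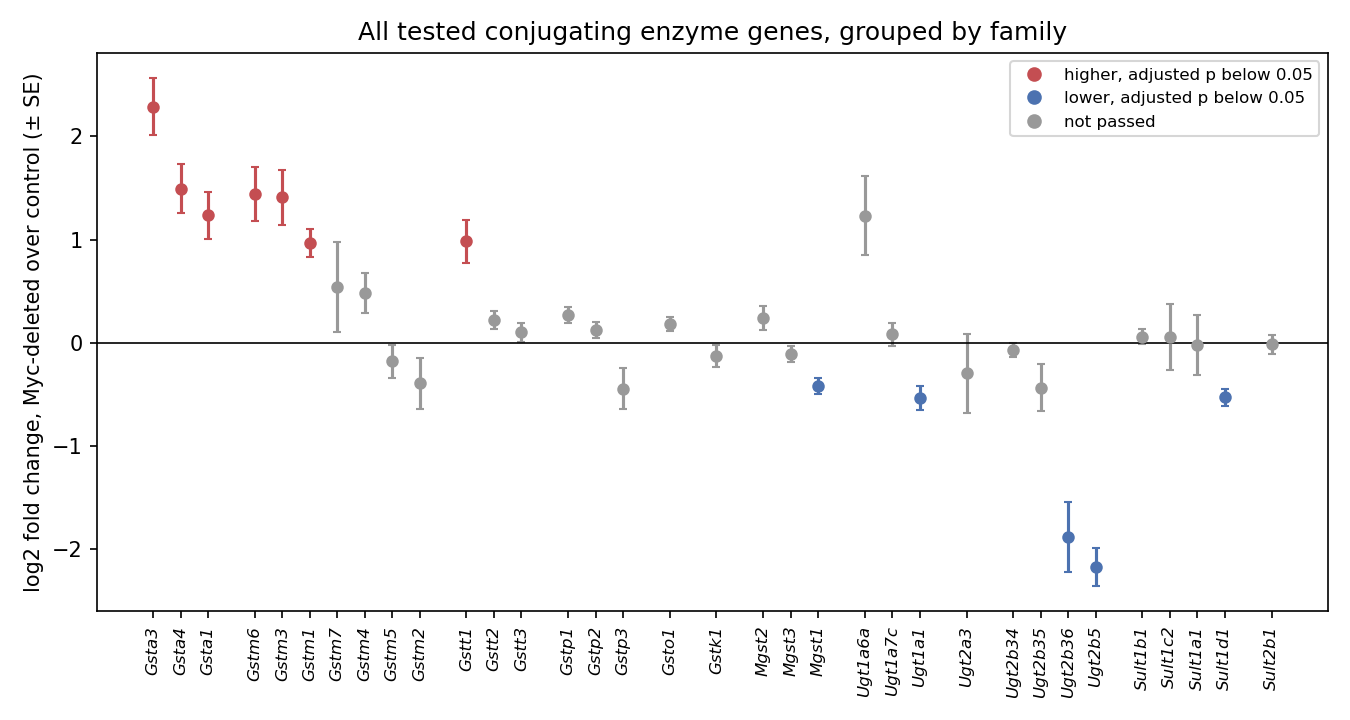
Log2 fold change with SE (vertical axis) of the 34 tested conjugating enzyme genes, grouped by family along the horizontal axis, with the call shown by colour. Soluble GSTs extend upward, to 2.29 for Gsta3, and Ugt2b5 and Ugt2b36 lie lowest, at -2.17 and -1.88.

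Microsomal GSTs are membrane enzymes unrelated in fold to the soluble classes. Mgst1, a glutathione transferase and peroxidase of the endoplasmic reticulum and outer mitochondrial membrane, was the sole glutathione transferase that passed as lower. It was at 159, 160 and 182 CPM in controls and 127, 125 and 123 CPM in Myc-deleted libraries, which varied little. The fall was 1.34-fold (log2 fold change -0.42 ± 0.08, adjusted p = 0.0105). Mgst3, the most abundant conjugating gene per length at 223 CPM per kb in controls, was at 244 ± 6.13 and 227 ± 14.7 CPM (SD, n = 3 each; -0.11 ± 0.07, adjusted p = 0.452). Mgst2, which can make leukotriene C4, was at 97.9 ± 10.1 and 116 ± 16.9 CPM (0.24 ± 0.12, adjusted p = 0.273).

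The UGT1A enzymes are made from 1 locus on chromosome 1 (88055388 to 88220002, GRCm38), where alternative first exons join shared last exons, so 58.2% of the words of Ugt1a1 also occur in other genes and RSEM's division of reads bears on each value. Ugt1a1 is the bilirubin-conjugating enzyme. It was at 123, 115 and 137 CPM in controls and 73.6, 98.9 and 87.3 CPM in Myc-deleted libraries, with no overlap. The fall was 1.45-fold (log2 fold change -0.53 ± 0.11, adjusted p = 0.0189), and it was not kept without control 1 (adjusted p = 0.0563) or control 3 (0.0721). Ugt1a7c was at 78.1, 87.6 and 89.2 CPM against 74.8, 98.8 and 96.5 CPM (0.08 ± 0.11, adjusted p = 0.718). Ugt1a6a, which conjugates planar phenols, was at 1.99, 1.81 and 2.86 CPM against 2.56, 7.52 and 5.54 CPM (1.23 ± 0.38, adjusted p = 0.0861). It overlapped the controls through Myc-deleted library 1, and without that library it passed at an adjusted p of 0.0113.

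Ugt1a1 also held a smaller part of the counts of its locus in the Myc-deleted libraries. Of all Ugt1a counts, Ugt1a1 held 60.5%, 56.1% and 59.8% in controls and 48.7%, 48.1% and 45.9% in Myc-deleted libraries. Ugt1a7c held 38.3%, 42.6% and 38.9% against 49.6%, 48.0% and 50.8%. The shares of both genes were apart between groups, and Ugt1a6a's mean share was 1.04% against 2.76%. The locus as a whole summed to 204, 206 and 229 CPM against 151, 206 and 190 CPM, which overlapped through Myc-deleted library 2. These shares carry no test. Ugt1a2, Ugt1a5, Ugt1a8, Ugt1a9 and Ugt1a10 had 1 to 10 counts summed over the 6 libraries, and Ugt1a6b none.

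**Figure D4:**
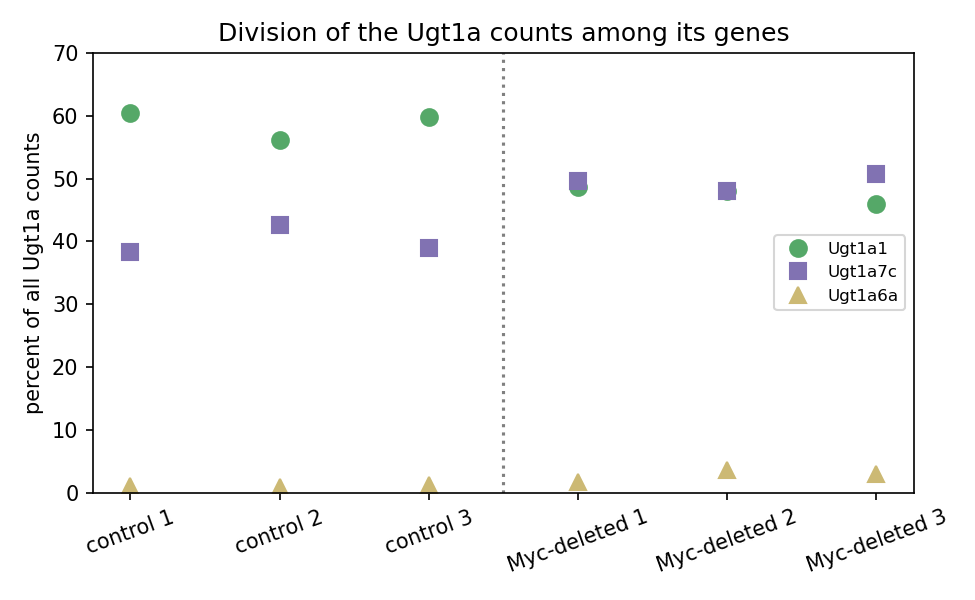
Percent of all Ugt1a counts held by Ugt1a1, Ugt1a7c and Ugt1a6a in each of the 6 libraries. Ugt1a1 exceeds Ugt1a7c in all 3 controls, while in the Myc-deleted libraries both lie between 45.9% and 50.8%.

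The UGT2B enzymes, which conjugate steroids, bile acids and drugs, held the largest falls. They lie in a region of chromosome 5 (86889767 to 87591594) that also holds the Ugt2a genes and Sult1b1, Sult1d1 and Sult1e1, 13 of the 64 genes within 701.8 kb. The start windows of Ugt2b5 and Ugt2b36 are shown because these 2 neighbours fell most. They come from RefSeq on GRCm38.p6, Ugt2b5 at chr5:87140321-87140500, minus strand and Ugt2b36 at chr5:87092536-87092715, minus strand, and capitals mark the longest run that they share, of 24 bases.
Ugt2b5: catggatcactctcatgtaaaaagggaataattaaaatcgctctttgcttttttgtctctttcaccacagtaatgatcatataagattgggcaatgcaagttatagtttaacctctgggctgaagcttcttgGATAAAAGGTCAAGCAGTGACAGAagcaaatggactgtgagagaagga
Ugt2b36: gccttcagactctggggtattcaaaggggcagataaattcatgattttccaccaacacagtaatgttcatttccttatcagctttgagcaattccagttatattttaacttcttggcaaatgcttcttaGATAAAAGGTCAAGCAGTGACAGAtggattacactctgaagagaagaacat
The windows are identical at 65.6% of aligned positions.

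Ugt2b5 was at 14.0, 15.04 and 16.3 CPM in controls and 3.57, 3.99 and 2.49 CPM in Myc-deleted libraries, with every Myc-deleted library far below every control. The fall was 4.50-fold (log2 fold change -2.17 ± 0.18, adjusted p = 0.000375). Of its words, 41.7% occur elsewhere, mostly in Ugt2b38, which was at 0. Ugt2b36 was at 6.46, 8.90 and 7.05 CPM, or 65, 103 and 69 counts, against 0.823, 2.69 and 2.58 CPM, or 9, 29 and 28 counts. Its fall was 3.67-fold (-1.88 ± 0.34, adjusted p = 0.00927). Nearly all of its words are its own, with 0.285% shared. Ugt2b35 did not overlap either, at 9.24, 9.86 and 10.3 CPM against 4.48, 9.01 and 8.30 CPM, with Myc-deleted library 1 well below the other libraries (-0.43 ± 0.23, adjusted p = 0.311).

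Ugt2b34, the most abundant UGT at 93.7 CPM per kb in controls, was at 394, 408 and 410 CPM against 376, 381 and 397 CPM, with overlap (-0.07 ± 0.07, adjusted p = 0.604). Ugt2a3, at 2.24 ± 0.389 and 1.82 ± 0.961 CPM (SD, n = 3 each), gave -0.30 ± 0.39. Ugt2b1, Ugt2a1 and Ugt2a2 had at most 2 counts in any library, and Ugt2b37 and Ugt2b38 had none.

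Of the SULTs, Sult1d1, which sulfonates catecholamines and phenols, was the sole gene of 5 tested that passed. Its start window (RefSeq, GRCm38.p6, chr5:87568987-87569166, minus strand) is shown with that of Ugt1a1 (chr1:88211799-88211978, plus strand), the other fallen gene near an Hnf1 core. Capitals mark GTTAAT or ATTAAC (the Hnf1 core on either strand) and CACGC (the xenobiotic core on the other strand).
Sult1d1: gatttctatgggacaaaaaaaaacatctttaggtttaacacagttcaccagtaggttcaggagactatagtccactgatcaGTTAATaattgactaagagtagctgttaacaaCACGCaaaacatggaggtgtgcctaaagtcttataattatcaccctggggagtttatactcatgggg
Ugt1a1: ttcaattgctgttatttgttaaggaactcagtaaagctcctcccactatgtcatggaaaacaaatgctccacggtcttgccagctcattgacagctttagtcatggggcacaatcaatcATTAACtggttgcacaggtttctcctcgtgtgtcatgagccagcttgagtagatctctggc
In Sult1d1 the Hnf1 core lies 79 bases and the xenobiotic core 47 bases before the start, and in Ugt1a1 the Hnf1 core lies 41 bases before it. Among genes with a promoter entry, the Hnf1 core was in 2 of 5 lower, 1 of 6 higher and 3 of 21 that did not pass. Ugt1a6a, of the same locus as Ugt1a1, holds it 50 bases before the start and had a log2 fold change of 1.23. Further matches were in untested genes such as Sult2a3.

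Sult1d1 was at 127, 140 and 123 CPM in controls and 89.7, 95.3 and 85.2 CPM in Myc-deleted libraries, both groups narrow and apart. The fall was 1.44-fold (log2 fold change -0.53 ± 0.08, adjusted p = 0.00441). Its neighbour Sult1b1, a thyroid hormone and phenol sulfotransferase, was at 171 ± 4.65 and 178 ± 7.88 CPM (SD, n = 3 each; 0.06 ± 0.07, adjusted p = 0.678). Sult2b1, a cholesterol sulfotransferase and the most abundant SULT per length at 72.3 CPM per kb, was at 263, 281 and 314 CPM against 306, 281 and 262 CPM (-0.01 ± 0.09, adjusted p = 0.947). Sult1a1 and Sult1c2, each near 2.1 CPM in controls, gave -0.02 ± 0.29 and 0.06 ± 0.32. Of the remaining 16 SULTs, 11 were at 0 in all libraries: Sult1c1, Sult1e1, Sult2a1 to Sult2a7, Sult3a1 and Sult3a2. Sult6b1 had 2 to 11 counts, and Sult2a8, Sult4a1, Sult5a1 and Sult6b2 at most 4.

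Promoter letters were compared over 68 RefSeq promoters of 57 of the 64 genes, each 300 bases long, 250 before and 50 after the start, on both strands. The antioxidant core TGACNNNGC was in 5.88% of them and in 12.4% of all 32851 promoters. For the xenobiotic core GCGTG the shares were 20.6% and 32.4%. The Hnf1 core GTTAAT was in 19.1% against 7.10%, and the E-box CACGTG, the core that Myc and Max bind, in 0 against 7.15%. The full palindromic Hnf1 site was in none of the members' promoters. These motifs can overlap, as in the Gstm5 promoter, where TGACCACGC holds CACGC. Among the 6 higher genes that have a promoter entry, the antioxidant core was in Gsta3 alone, and among the 5 lower genes in Mgst1 alone. Gsta4 is without an entry. Such counts are too few to compare, and absence of letters in this window says nothing about a factor.

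The levels were also summed per length within each class, as a description without a test. The soluble GSTs together came to 558 ± 26.0 CPM per kb in controls and 767 ± 87.8 in Myc-deleted libraries (SD, n = 3 each), or 44.1% and 54.8% of all conjugating transcripts. Within them the alpha class went from 84.0 ± 18.0 to 208 ± 63.2, the mu class from 22.9 ± 1.78 to 37.7 ± 6.40, the pi class from 248 ± 5.29 to 291 ± 14.6 and the omega class from 170 ± 2.90 to 193 ± 8.00 CPM per kb. UGTs came to 187 ± 7.57 and 157 ± 12.1, microsomal GSTs to 332 ± 1.88 and 300 ± 17.2, and SULTs to 189 ± 6.39 and 175 ± 4.84 CPM per kb. The total of all conjugating genes was 1266 ± 18.4 and 1399 ± 113 CPM per kb, and that of Myc-deleted library 1, 1271, lay within the control range. These totals rest on a few abundant genes.

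**Figure D5:**
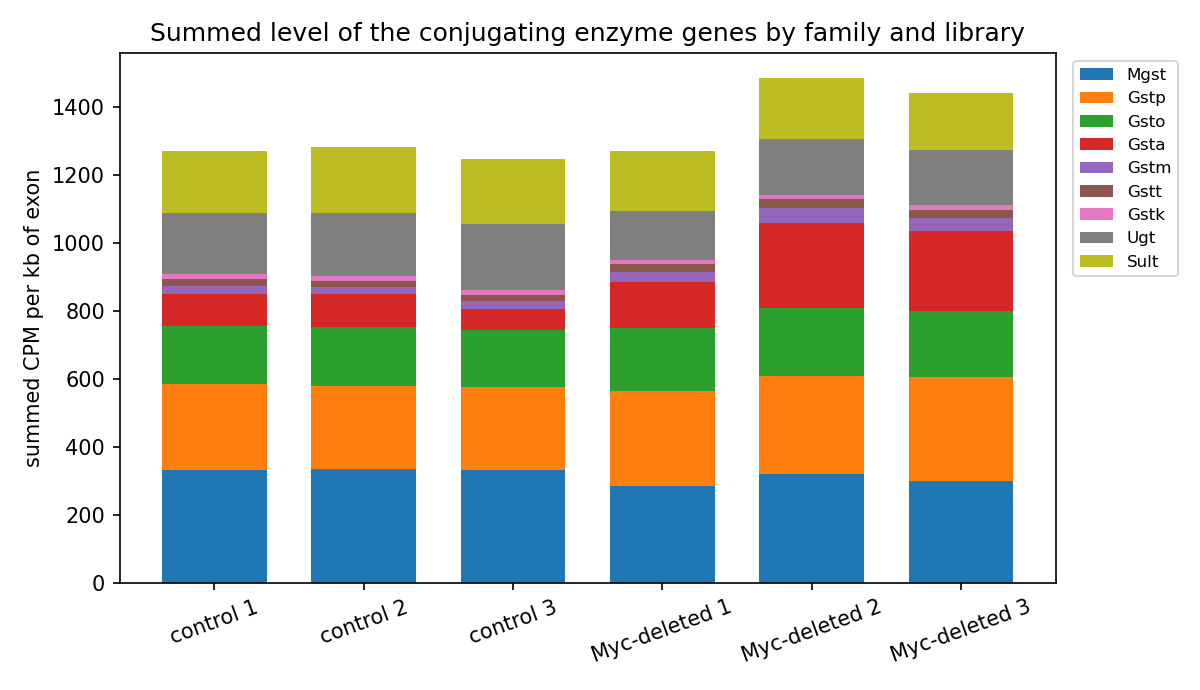
Summed CPM per kb of exon of the conjugating enzyme genes, as 1 stacked bar per library. The segments are Mgst, Gstp, Gsto, Gsta, Gstm, Gstt, Gstk, Ugt and Sult. Soluble GSTs lie higher and UGTs, microsomal GSTs and SULTs lower in the Myc-deleted libraries, and Myc-deleted library 1 is the lowest Myc-deleted point for soluble GSTs.

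Myc-deleted library 1 was the lowest of its group in all 7 higher genes, against 45.1% of the 537 genes of the whole table that were higher, and in 2 of the 5 lower genes. The same library was lowest of its group for Lct and Fabp1, genes of mature and proximal enterocytes, and for Gata4, a proximal intestine regulator, all chosen after their values were seen: Lct was at 6.77, 30.4 and 18.9 CPM, Fabp1 at 30.5, 178 and 124 CPM, and Gata4 at 7.59, 14.5 and 13.6 CPM in Myc-deleted libraries 1, 2 and 3, against 1.04 to 3.78, 16.0 to 43.6 and 3.18 to 5.36 CPM in controls. Of the 9 proximal markers, 5 were tested, with 3 higher and 1 lower. Their summed CPM ranged from 82.5 to 164 in controls and 82.3 to 255 in Myc-deleted libraries. Slc2a2, also higher, was nearly level in Myc-deleted libraries 1, 2 and 3, at 20.6, 21.3 and 21.1 CPM, against 0.795 to 2.42 in controls. Slc40a1, the lower one, was highest of its group in library 1, at 14.1, 8.27 and 8.21 CPM, against 59.2 to 111 in controls. Of 16 enterocyte markers, 3 were higher and none lower, and of 10 ileum markers 2 were higher and 1 lower. The summed ileum CPM was 16178 to 18496 in controls and 15690 to 17637 in Myc-deleted libraries. The shares over all tested genes were 4.22% higher and 3.73% lower. The part of regional or cell composition in the GST results was not tested. Without Myc-deleted library 1, all 7 higher genes and all 5 lower genes still passed, joined by Gstp1 (adjusted p = 0.0426) and Ugt1a6a.

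Of the glucuronidation support genes, including Ugdh, which makes UDP-glucuronic acid, 7 were tested and none passed, with a median log2 fold change of 0.09, and of the 13 tested sulfonation support genes, including the PAPS synthase Papss2, none passed, with a median of -0.07. Of 16 tested genes of glutathione supply and turnover, 2 were higher and none lower: Oplah, the 5-oxoprolinase, by 0.69 ± 0.15 (adjusted p = 0.0209), and Gclm, the modifier subunit of glutamate-cysteine ligase, by 0.44 ± 0.10 (adjusted p = 0.0277). Its catalytic partner Gclc gave 0.17 ± 0.08 (adjusted p = 0.250). Among 13 other conjugating enzymes tested, Acy3, an aminoacylase that deacetylates mercapturic acids, was the sole gene to pass, by 0.49 ± 0.10 (adjusted p = 0.0181). The share called was 12.5% for the glutathione list and 7.69% for the other conjugating enzymes, against 7.95% of all tested genes. At that share, having none pass among 7 or 13 tested support genes says little.

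Genes for export of conjugates moved in both directions. Of 10 tested, 2 were higher and 1 lower, or 20% and 10%, against 4.22% and 3.73% of all tested genes. Abcc2, the apical pump for glucuronide and glutathione conjugates, was at 160 ± 17.8 CPM in controls and 243 ± 29.7 in Myc-deleted libraries (SD, n = 3 each; 0.60 ± 0.11, adjusted p = 0.00986). Abcc5 was at 11.1 ± 3.35 and 25.3 ± 3.76 CPM (1.17 ± 0.20, adjusted p = 0.00748). Abcg2, an apical pump for sulfate conjugates, was at 358 ± 29.2 and 252 ± 6.55 CPM (-0.50 ± 0.08, adjusted p = 0.00503).

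Of 33 regulator genes, all tested, 4 were higher and 3 lower, with a median of 0.05. These are 12.1% and 9.09%, against 4.22% higher and 3.73% lower of all tested genes. The 4 with the lowest p were Gata4 (1.496 ± 0.27, adjusted p = 0.00973) and Gata5 (0.45 ± 0.10, adjusted p = 0.0194), higher, and Vdr, the vitamin D receptor (-0.46 ± 0.09, adjusted p = 0.0118), and Ppard (-0.47 ± 0.11, adjusted p = 0.0240), lower. Transcripts of the 4 sensors named above did not pass. Nr1i3, encoding Car, was at 1.19, 3.37 and 2.66 CPM in controls and 2.84, 7.52 and 6.18 CPM in Myc-deleted libraries, with overlap (1.18 ± 0.41, adjusted p = 0.124). Nfe2l2, encoding Nrf2, gave 0.05 ± 0.10 (adjusted p = 0.812), Ahr -0.10 ± 0.20 (adjusted p = 0.828) and Nr1i2, encoding Pxr, 0.07 ± 0.07 (adjusted p = 0.618). Transcript levels do not measure their activity.

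Of 25 tested phase I enzymes and companion genes of Nrf2 or Ahr, 10 were higher and 1 lower, with a median of 0.35. These are 40% and 4%, against 4.22% higher and 3.73% lower of all tested genes. Akr1b8, an aldo-keto reductase, was at 5.25 ± 1.205 CPM in controls and 27.3 ± 8.38 in Myc-deleted libraries (SD, n = 3 each; 2.38 ± 0.26, adjusted p = 0.000972). Ephx1, the microsomal epoxide hydrolase, was at 4.30 ± 2.56 and 20.2 ± 5.60 CPM (2.20 ± 0.33, adjusted p = 0.00404), and Ephx2, the soluble one, gave 0.51 ± 0.08 (adjusted p = 0.00592). Cyp3a25 was the sole lower gene, at 59.4 ± 11.3 and 21.6 ± 5.56 CPM (-1.46 ± 0.19, adjusted p = 0.00200). Nqo1, a frequently used reporter of Nrf2, gave 0.19 ± 0.13 (adjusted p = 0.446). On the same list, Cbr1 (0.52 ± 0.11, adjusted p = 0.0229) and Akr1c13 (0.51 ± 0.10, adjusted p = 0.0136) passed as higher. Txnrd1, Srxn1 and Hmox1 were apart and higher without passing, while Gpx2 and Prdx1 overlapped between groups. Groups were apart, in either direction, for 27.8% of all tested genes. Of the 25 fold changes, 18 were above 0 and 7 below. Whether Nrf2 activity changed was not tested. Nqo1, Cbr1, Akr1c13, Txnrd1, Srxn1, Hmox1, Gpx2, Prdx1, Nfe2l2, Ahr, Nr1i2, Nr1i3 and Gclc fall outside the rule for naming. All were chosen after their values were seen.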

How the data were processed

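Polyadenylated RNA libraries (stranded TruSeq, per the labels' protocols) of 6 intestine samples were counted per gene. The values are RSEM expected counts, deposited by the authors; cutadapt, STAR, Picard, RSEM and the mm10 build are named in the submitters' processing notes, without versions or settings, and no other normalization was applied to the deposited expected counts. Expected counts were rounded to whole numbers. Genes were matched to GENCODE M21 (99.1% of IDs without version). Genes passing edgeR's filterByExpr (minimum count 10, minimum total 15) were fitted with edgeR 4.0.16 (R 4.3.3), TMM scaling, glmQLFit and glmQLFTest on group alone, with Benjamini-Hochberg adjustment over 12720 tested genes. The SE is the log2 fold change divided by the square root of F. CPM values are TMM-scaled, and levels between genes are given per kb of summed exon length. Reads from paralogs cannot be told apart by these counts; 50-base words shared between transcripts describe this, with 21 members sharing none and 14 sharing most of theirs.

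The fit was tested on simulated data for this comparison over 12720 genes: the calls recovered 2% of the genes given a 1.25-fold change, 54% of those with 1.5-fold, 76% of those with 2-fold and 98% of those with 4-fold, while 11.5% of all calls made were false. The changed genes, 50 for each fold, were drawn without the scarcest genes, so the recovery does not cover those. The simulation gave 130 calls against 1011 in the data, and its false share depends on how many genes change. Libraries of a group differed by more than sampling noise. Alternatives numbered 17, each changing 1 choice except DESeq2, which changes the test and the scaling together; of these, summing near copies was chosen after the data were seen. Named were genes that passed, the most abundant gene of each family, genes whose groups did not overlap, and up to 4 called genes of each pathway list. The genes and lists were chosen with earlier results of these data known. Sequences are from RefSeq (GRCm38.p6). Protein comparison was not made, since no protein table was used here.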

Additional observations from a re-analysis of the deposited data

How the results depend on the processing

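The 7 higher and 5 lower conjugating genes all passed under DESeq2's and upper-quartile scaling, TMM without ribosomal protein genes, the DESeq2 test, limma voom, no filter, a filter of 1 CPM, and the summing of near copies, and some settings added Gstp1 or Ugt1a6a. Tested against a 1.2-fold change, 3 conjugating genes were lower, without Ugt1a1 (adjusted p = 0.116) and Mgst1 (0.173), Gstt1 was lost among the higher genes (0.0510), and 230 genes were higher and 178 lower overall. At an adjusted p of 0.1, 824 genes were higher and 748 lower. Leaving out each library in turn gave 6 to 9 higher and 4 to 5 lower conjugating genes, and 229 to 503 higher and 233 to 447 lower genes of all. The lowest counts of all genes came without control 2, which also ended the call of Gstm3 (adjusted p = 0.0569). The sign of 4 fold changes that did not pass turned as libraries were left out: Gstm7 ranged from -0.072 (without Myc-deleted 2) to 0.78, Sult1a1 from -0.16 to 0.15 (without control 2; 0.088 without Myc-deleted 3), Sult1c2 from -0.16 (without Myc-deleted 1; -0.096 without control 3) to 0.27, and Sult2b1 from -0.074 to 0.058 (without control 3; 0.032 without Myc-deleted 3).

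No pairing of the samples by replicate number was shown. Same-number deviations correlated at only 0.0261, 0.0524 and 0.0189, though each library correlated best with its own number. Values this small cannot settle whether the numbers pair the samples. With the replicate number as a block, the calls were 7 higher and 5 lower among the conjugating genes, and among all genes 552 higher and 428 lower. No conjugating gene's call changed with the block.

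Depth limits genes under 3 counts per library, 0.259 to 0.306 CPM. Of 64 genes, 30 were untested because they did not pass the filter for low counts. The filter level, 0.929 CPM, lies above that range, and Sult6b1 was untested with 2 to 11 counts.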
